A study of Mus musculus with 8 samples.

Results

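The subject of these measurements is a set of 31 mouse genes for fatty acid oxidation and ketone body metabolism, read in intestinal epithelial cells. They were taken by gene symbol from the 54139 rows of the deposited gene tables, and each of the 31 symbols had a row. The libraries came from 4 cKO samples, which carry a floxed Rictor allele together with Villin-Cre, and from 4 WT samples, which carry Villin-Cre alone, so the Cre driver is common to both groups. Villin-Cre expresses Cre recombinase throughout the intestinal epithelium, and Rictor encodes the defining subunit of mTOR complex 2. The segment of intestine, the way the cells were isolated, the age and sex of the mice and whether each library came from a separate mouse are not stated, and p-values therefore measure the spread between these libraries, which may be technical.

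In the cell, long-chain fatty acids are joined to coenzyme A and enter mitochondria through the carnitine shuttle, where each turn of the oxidation spiral removes an acetyl group and passes electrons to the respiratory chain. Peroxisomes shorten very long and branched chains first, and acetyl-CoA can be turned into ketone bodies or recovered from them. Many of these genes are targets of the nuclear receptor PPAR alpha, which responds to fatty acids and to fasting, and absorptive enterocytes meet fatty acids from the diet and from the blood.

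Total counts were between 15110451 and 18351748 in the cKO libraries, against 15982538 to 18708335 in the WT libraries. CPM is the count relative to the library's total after TMM scaling (trimmed mean of M values), and FPKM divides by gene length as well. Rictor itself had 30.4, 39.6, 20.8 and 40.6 CPM in cKO libraries 1 to 4, against 41.7, 42.4, 57.3 and 51.4 CPM in WT libraries 1 to 4. Every cKO library was below every WT library. The log2 fold change was -0.55 ± 0.20 (SE) with an adjusted edgeR p of 0.921, and the exact two-sided permutation p was 0.0286, the smallest that 4 against 4 libraries can give. The log2 fold change was -0.29 without both libraries numbered 3, -0.25 by limma voom and -0.41 with offsets for GC content and length. The cKO library 3 stood apart from the others: its log2 deviations had a correlation of 0.519 with the GC content of genes, where the other 7 libraries lay between -0.198 and -0.0334. The WT library 3 had the highest summed level of 15 enterocyte markers, 26800 CPM, against 11200 to 13400 CPM in the other WT libraries and 12500 to 19000 CPM in the cKO libraries. Markers of fibroblasts and smooth muscle summed to 1.65 to 2.13 CPM in cKO, against 0.371 to 1.27 CPM in WT libraries. Every cKO library was above every WT library at a low level, and 0 of these 8 genes passed the filter on low counts. Macrophage and dendritic cell markers summed to 8.54 to 19.3 CPM in cKO, against 5.36 to 11.9 CPM in WT libraries, with estimates above 0 for 4 of 4 tested and 1 of them at an unadjusted p under 0.05. The fat cell markers Adipoq, Cfd and Lep were at 0 in every library. T cell markers summed to 204 to 670 CPM in cKO, against 159 to 539 CPM in WT libraries, with estimates above 0 for 11 of 11 and 0 of them at an unadjusted p under 0.05. Enteroendocrine markers summed to 529 to 659 CPM in cKO, against 395 to 533 CPM in WT libraries. Their estimates were above 0 for 7 of 7, with 4 of them at an unadjusted p under 0.05. Of all genes tested, 1.83% were at that edgeR p with higher values in cKO libraries, and 2.07% with lower values. Paneth cell markers had 3 estimates above 0 and 3 below, with 2 of the lower ones at that p. Goblet cell markers had 3 above and 4 below, with 1 of the lower ones at that p. Enterocyte markers had 5 above and 10 below, and villus tip enterocyte markers 4 above and 1 below, with 0 at that p. No T cell or enteroendocrine marker was at 0 in all libraries.

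All 31 genes were expressed above the filter on low counts and were tested, and 25 of them had a mean FPKM of 10 or more. The comparison asks whether loss of Rictor in the epithelium goes with a different level of this machinery. By the quasi-likelihood test of edgeR with Benjamini-Hochberg adjustment over 14701 genes, 0 of the 31 passed an adjusted p of 0.05, where 0.0136% of all genes tested did. At an unadjusted p under 0.05 there were 3, which is set against 3.9% of all genes: Pdk4, a brake on glucose oxidation, with a positive log2 fold change, and Oxct1, a ketone body enzyme, and Abcd3, a peroxisomal transporter, with negative ones. Of all genes tested, 1.83% were at an unadjusted p under 0.05 with higher and 2.07% with lower values in cKO libraries. DESeq2, run without that filter on 27741 genes, also called 0 of the 31 and had 3 at an unadjusted p under 0.05. It called 0.148% of the 27741 and had 2.82% at that p. Those shares include genes with very low counts, so they are not like the shares over 14701 genes. Limma voom called 0 and had 4 at that p, against 0.0544% and 8.14% of all genes. In 2 genes, Oxct1 and Abcd3, every cKO library lay below every WT library, where 1.8% of all genes tested had groups apart in this direction and 3.21% in either direction. These counts depend on single libraries. Without the WT library 3 there were 6 genes at an unadjusted p under 0.05, against 4.33% of all genes, and 6 whose groups did not overlap, against 6.42%. Without both libraries numbered 3 there were 7, against 5.05%, and 6, against 10.5%.

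**Figure D1:**
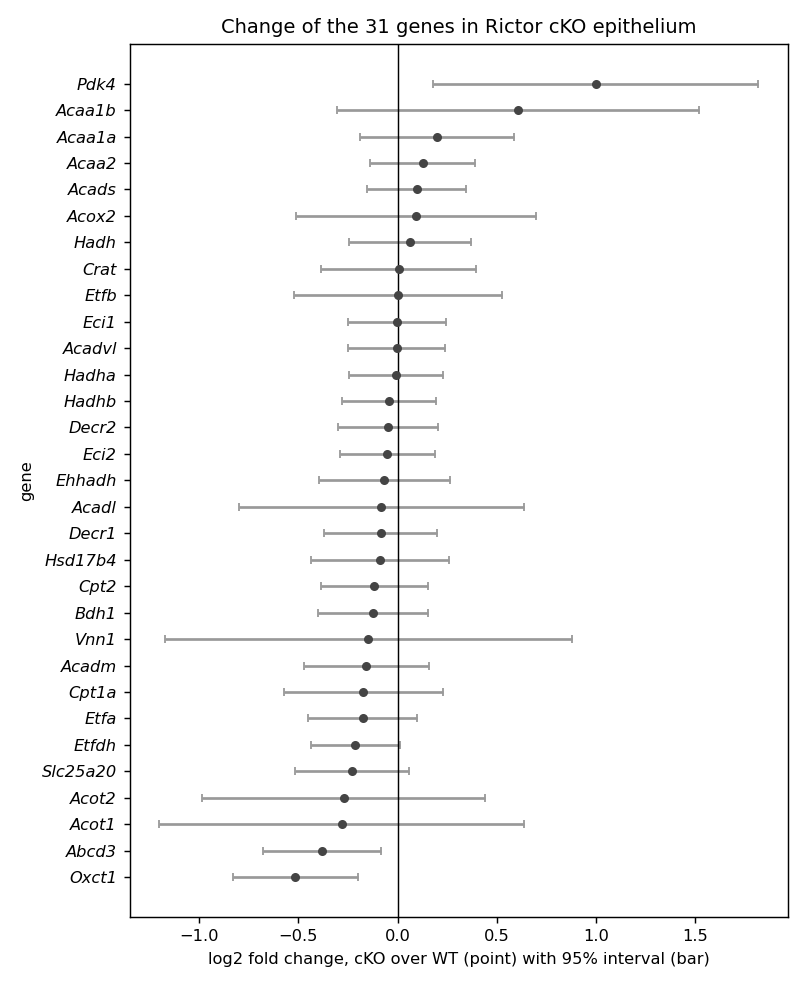
Log2 fold change of each of the 31 genes, cKO over WT, on the horizontal axis, ordered by size down the page. Points are edgeR estimates from 4 cKO and 4 WT libraries and bars are 95% intervals, and 28 of the 31 intervals hold 0.

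The fold changes were small for most of the set. The log2 fold change was within 0.2 of 0 for 23 genes and beyond 0.5 for 3 genes, and for 27 genes the whole 95% interval lay within 1 of 0, which is a change of less than 2-fold either way. The plot of fold changes shows the long bars of the genes that vary most between libraries, Vnn1, Acaa1b, Acot1 and Pdk4. The estimate was below 0 for 22 of the 31 genes, where 49.5% of all genes tested were below 0. The median log2 fold change of the set was -0.07, against 0.0022 for all genes tested, and it was -0.000996 without the WT library 3.

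The promoters of 5 genes are shown here, taken from RefSeq on build GRCm38.p6, each running from 250 bases before to 50 bases after the start of the gene and printed along the strand of the gene. Oxct1, Abcd3 and Pdk4 are shown because they had the smallest p in the set, and Acot1 and Acot2 because these neighbouring genes moved together from library to library. Capitals mark matches to the motifs that were searched.
Oxct1, chr15:4026178-4026477, plus strand: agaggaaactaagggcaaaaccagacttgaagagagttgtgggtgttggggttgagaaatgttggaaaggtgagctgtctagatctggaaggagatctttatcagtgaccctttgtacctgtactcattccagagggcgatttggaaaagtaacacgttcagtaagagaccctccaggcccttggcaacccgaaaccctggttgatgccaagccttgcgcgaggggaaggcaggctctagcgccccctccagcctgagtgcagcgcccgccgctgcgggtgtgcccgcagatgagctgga
Abcd3, chr3:121815253-121815552, minus strand: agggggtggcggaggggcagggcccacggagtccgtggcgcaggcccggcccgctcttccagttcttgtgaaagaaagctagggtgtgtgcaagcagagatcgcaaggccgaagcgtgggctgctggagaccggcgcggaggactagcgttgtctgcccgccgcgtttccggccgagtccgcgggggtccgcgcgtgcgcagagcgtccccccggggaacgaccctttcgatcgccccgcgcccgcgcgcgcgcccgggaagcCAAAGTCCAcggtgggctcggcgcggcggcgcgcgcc
Pdk4, chr6:5496229-5496528, minus strand: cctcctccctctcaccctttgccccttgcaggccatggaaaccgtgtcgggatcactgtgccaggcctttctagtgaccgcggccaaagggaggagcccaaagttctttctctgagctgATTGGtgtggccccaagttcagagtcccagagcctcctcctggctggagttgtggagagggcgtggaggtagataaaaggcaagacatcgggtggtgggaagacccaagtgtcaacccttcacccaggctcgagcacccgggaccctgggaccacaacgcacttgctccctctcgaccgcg
Acot1, chr12:84009252-84009551, plus strand: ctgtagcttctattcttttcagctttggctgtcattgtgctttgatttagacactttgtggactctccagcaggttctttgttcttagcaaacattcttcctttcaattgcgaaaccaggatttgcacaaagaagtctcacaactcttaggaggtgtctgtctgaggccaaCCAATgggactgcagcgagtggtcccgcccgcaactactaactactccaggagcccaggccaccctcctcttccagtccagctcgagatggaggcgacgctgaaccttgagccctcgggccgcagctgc
Acot2, chr12:83987611-83987910, plus strand: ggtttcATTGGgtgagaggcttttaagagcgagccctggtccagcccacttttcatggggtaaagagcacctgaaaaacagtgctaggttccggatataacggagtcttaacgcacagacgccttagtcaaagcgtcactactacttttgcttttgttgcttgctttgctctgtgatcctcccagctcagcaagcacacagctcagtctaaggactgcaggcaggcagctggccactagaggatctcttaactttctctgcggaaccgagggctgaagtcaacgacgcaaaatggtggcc

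The promoter table held 26 of the 31 genes. For 20 of the 26 its start lay within 100 bases of the start in the deposited gene coordinates, and the other promoters lay farther away. Both strands were searched for CCAAT, for the FoxO core GTAAACA, for the estrogen-related receptor element TCAAGGTCA, for the HNF4 core CAAAGTCCA and for a PPAR pair, in which AGGNCA is followed after 1 base by a second AGGNCA and N is any base. The HNF4 core was added after these sequences had been seen. CCAAT was in 12 of the 26 promoters (46.2%) and in 37.9% of all 27025 promoters in the table. In the printed set it lies in Pdk4, Acot1 and Acot2, on the opposite strand in Pdk4 and Acot2. The HNF4 core was in 1 of the 26, Abcd3, at position 13 after the start, and in 0.47% of all promoters. The FoxO core, the estrogen-related receptor element and the PPAR pair were in 0 of the 26 and in 3.53%, 0.4% and 0.389% of all promoters.

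**Figure D2:**
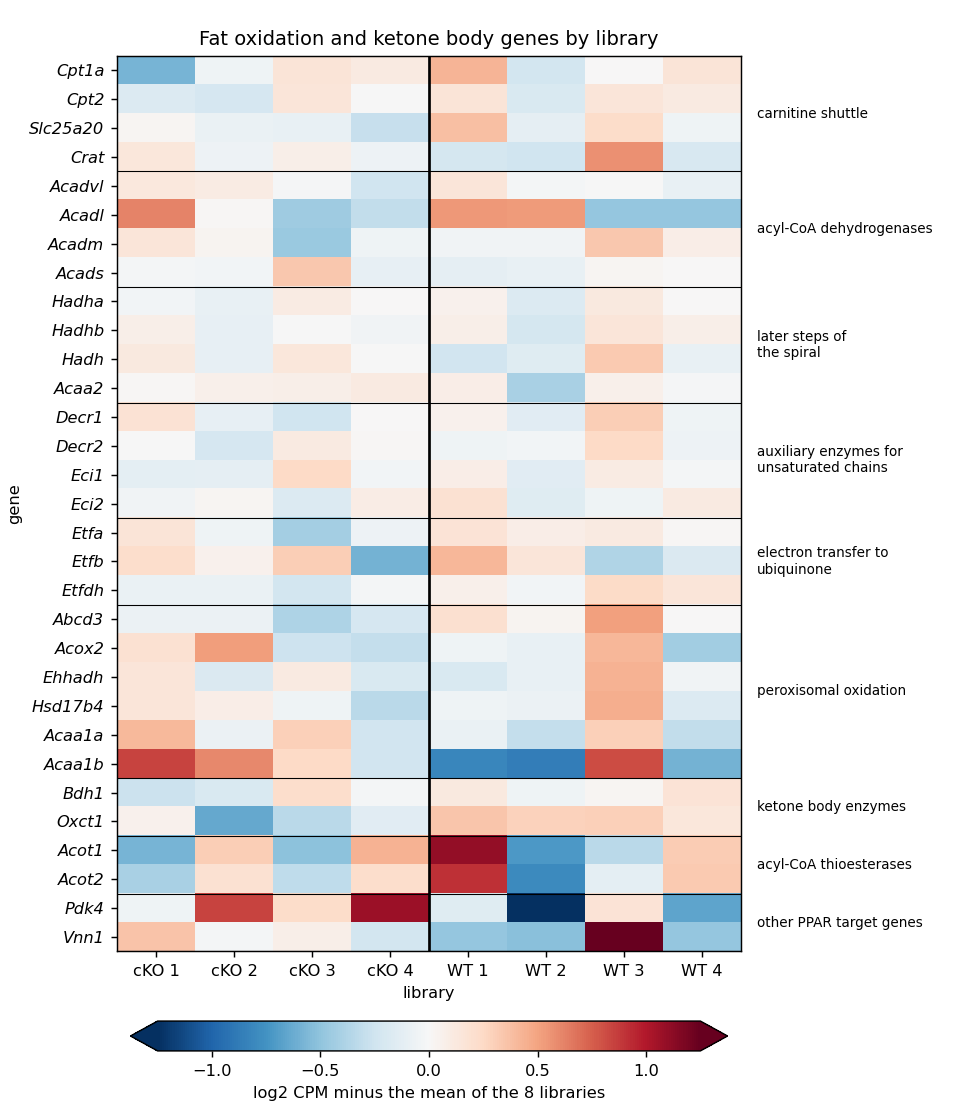
Level of the 31 genes (rows, grouped by role) in the 4 cKO libraries, left of the line, and the 4 WT libraries, right of it. Colour is log2 CPM minus the mean of the 8 libraries; Oxct1 and Abcd3 are the 2 rows whose cKO libraries all lie below the WT libraries.

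The carnitine shuttle, which carries long acyl chains into the mitochondrion, had 0 of 4 genes at an unadjusted p under 0.05. Cpt1a, the outer membrane enzyme that controls entry, had 210.2, 303, 351 and 339.8 CPM in cKO libraries 1 to 4, against 423, 267, 316 and 351 CPM in WT libraries 1 to 4. The cKO library 1 was the lowest of the 8 and the WT library 1 the highest, and the groups overlapped. Cpt2, its partner on the inner membrane, had 135, 131, 169 and 151 CPM in cKO libraries 1 to 4, against 169.8, 133, 168 and 164 CPM in WT libraries 1 to 4. Both groups covered nearly the same range. The log2 fold change of Cpt1a was -0.17 ± 0.18 (SE), and it was -0.04 without the cKO library 1 or without the WT library 1. For Cpt2 it was -0.12 ± 0.12, with -0.06 without the cKO library 2 and -0.19 without the cKO library 3 or the WT library 2. Slc25a20, the translocase that exchanges acylcarnitine for carnitine, had 49.5, 46, 45.6 and 39.7 CPM in cKO libraries 1 to 4, against 63.3, 44.9, 56.9 and 46.9 CPM in WT libraries 1 to 4. Its log2 fold change was -0.23 ± 0.13, with an unadjusted edgeR p of 0.107. In WT the libraries 1 and 3 were high, and the other WT libraries lay within the cKO range. Crat, which moves acetyl groups on and off carnitine, had 86.8, 75.1, 82.8 and 74.8 CPM in cKO libraries 1 to 4, against 67.6, 65.9, 116 and 68.5 CPM in WT libraries 1 to 4. The WT library 3 was the highest of all, and the other 3 WT libraries lay below every cKO library. Its log2 fold change was 0.0057 with all 8 libraries and 0.25 without the WT library 3. Crat overlaps Dolpp1 on the opposite strand, and because no source states whether counting used strand, reads from the overlap cannot be assigned to either gene.

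The acyl-CoA dehydrogenases, which take the first step of each turn of the spiral and differ in the chain length they accept, had 0 of 4 genes at an unadjusted p under 0.05. Acadvl, for very long chains, averaged 40.0 ± 4.49 FPKM in cKO and 40.2 ± 2.95 FPKM in WT libraries (SD, n = 4 each). Its estimate was -0.0050 ± 0.112 (log2, SE). Acadm, for medium chains, had 166, 153, 109 and 145 CPM in cKO libraries 1 to 4, against 146, 146, 189 and 159 CPM in WT libraries 1 to 4. The cKO library 3 was the lowest and the WT library 3 the highest, and the other 6 libraries of both groups were mixed. The Acadm estimate was -0.16 ± 0.14 on the log2 scale with all libraries and 0.04 without both libraries numbered 3. Acads, for short chains, averaged 42 ± 6.21 FPKM in cKO and 39.4 ± 1.91 FPKM in WT libraries (SD, n = 4 each), with the cKO library 3 at 117 CPM above 86.7 to 91.2 CPM in the other cKO libraries.

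Acadl, the long-chain dehydrogenase, split inside each group. It had 251, 166, 121 and 133 CPM in cKO libraries 1 to 4, against 239, 237, 117 and 118 CPM in WT libraries 1 to 4. The cKO library 1 and the WT libraries 1 and 2 formed a high set, the WT libraries 3 and 4 and the cKO libraries 3 and 4 a low set, and the cKO library 2 lay between them. The highest library was 2.15 times the lowest, and the log2 fold change was -0.08 with a 95% interval of -0.80 to 0.64. Among the dehydrogenases Acadl had the highest level per length, with 82.6 ± 28.8 FPKM in cKO and 87.6 ± 34.4 FPKM in WT libraries (SD, n = 4 each). Its FPKM relative to that of Acadm was between 1.79 and 2.95 in cKO libraries, against 1.21 to 3.19 in WT libraries.

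The later steps of the spiral had 0 of 4 genes at an unadjusted p under 0.05, and their log2 fold changes were between -0.04 and 0.13. Acaa2, the mitochondrial thiolase that releases acetyl-CoA, had the highest mean level of the 31, with 133 ± 4.20 FPKM in cKO and 122 ± 17.8 FPKM in WT libraries (SD, n = 4 each). By library it had 197, 203, 205 and 211 CPM in cKO libraries 1 to 4, against 205, 146, 203 and 193 CPM in WT libraries 1 to 4. The WT library 2 was low and the other 7 lay close together, and the log2 fold change was 0.13 ± 0.12 with all libraries and 0.0254 without the WT library 2. Hadh, the 3-hydroxyacyl-CoA dehydrogenase for shorter chains, was second by level, with 119 ± 9.33 FPKM in cKO and 114 ± 21.2 FPKM in WT libraries (SD, n = 4 each). It had 633, 544, 641 and 578 CPM in cKO libraries 1 to 4, against 494, 523, 731 and 547 CPM in WT libraries 1 to 4. The highest and the lowest values were both in WT, in the libraries 3 and 1. Hadha and Hadhb, the subunits of the trifunctional protein of the inner membrane, had log2 fold changes of -0.0083 ± 0.107 and -0.04 ± 0.11 (SE). The FPKM of Hadhb relative to Hadha was between 0.528 and 0.611 in cKO libraries, against 0.552 to 0.595 in WT libraries.

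The auxiliary enzymes, which rearrange double bonds so that unsaturated chains can be oxidised, had 0 of 4 genes at an unadjusted p under 0.05, and their log2 fold changes were between -0.09 and -0.0038. Decr1, the mitochondrial dienoyl-CoA reductase, averaged 29.4 ± 3.63 FPKM in cKO and 31.2 ± 4.39 FPKM in WT libraries (SD, n = 4 each). Decr2, its peroxisomal relative, averaged 20.6 ± 1.93 FPKM in cKO and 21.3 ± 2.33 FPKM in WT libraries (SD, n = 4 each), and its WT library 3 stood at 57.4 CPM above 46.2 to 47.0 CPM in the other WT libraries. Eci1 and Eci2, the enoyl-CoA isomerases, had log2 fold changes of -0.0038 ± 0.113 and -0.05 ± 0.11 (SE).

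Electron transfer from the dehydrogenases to ubiquinone had 0 of 3 genes at an unadjusted p under 0.05. Etfdh, the oxidoreductase that hands the electrons to ubiquinone, had 141, 141, 127 and 146 CPM in cKO libraries 1 to 4, against 156, 145, 175 and 166 CPM in WT libraries 1 to 4. The cKO library 4 exceeded the WT library 2, and otherwise the cKO libraries were below the WT libraries. Its log2 fold change was -0.21 ± 0.10, with an unadjusted edgeR p of 0.0597, an adjusted p of 0.921 and an exact permutation p of 0.0571. With offsets for GC content and length the log2 fold change was -0.09. Etfdh had the lowest mean within-group spread of the set, an SD of 0.104 on the log2 CPM scale. Etfa, the alpha subunit of the electron transfer flavoprotein, had 221, 190.2, 147 and 189 CPM in cKO libraries 1 to 4, against 222, 209, 213 and 199 CPM in WT libraries 1 to 4. The cKO library 3 was the lowest, and the cKO library 1 lay within the WT range. Etfb, the beta subunit, was listed at a far lower level, 7.32 ± 1.85 FPKM in cKO and 7.31 ± 1.82 FPKM in WT libraries (SD, n = 4 each), against 101 ± 16 FPKM in cKO and 114 ± 5.11 FPKM in WT libraries (SD, n = 4 each) for Etfa, although the subunits pair in the protein. An annotated gene on the same strand, Gm45233, shares 67.3% of the 50-base windows of the Etfb transcript, so the level of Etfb is uncertain.

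The peroxisomal branch was mixed, with 3 estimates above 0 and 3 below, and 1 of 6 genes at an unadjusted p under 0.05. Abcd3, the membrane transporter that brings acyl-CoA into the peroxisome, lies at chr3:121758774-121815302 on the minus strand of build GRCm38. It had 238, 237, 191 and 215 CPM in cKO libraries 1 to 4, against 287, 256, 355 and 250 CPM in WT libraries 1 to 4. Every cKO library was below every WT library, by a narrow margin between the cKO library 1 and the WT library 4, and the WT library 3 was the highest by far. The level averaged 33.1 ± 3.20 FPKM in cKO and 43.1 ± 7.24 FPKM in WT libraries (SD, n = 4 each). Its fold was 0.768 and its log2 fold change -0.38 ± 0.14 (SE, 95% interval -0.68 to -0.08), with an unadjusted edgeR p of 0.0169 and an adjusted p of 0.921. The exact permutation p was 0.0286. Without both libraries numbered 3 the log2 fold change was -0.20, and with offsets for GC content and length it was -0.28. The part that the enterocyte marker level of the WT library 3 has in this difference was not tested.

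Acaa1a and Acaa1b encode the peroxisomal thiolases. Acaa1b had 19.4, 16.4, 12.8 and 9.12 CPM in cKO libraries 1 to 4, against 6.04, 5.86, 19 and 7.09 CPM in WT libraries 1 to 4. Among WT libraries the library 3 was close to the highest cKO library, and the other 3 WT libraries lay below every cKO library. With all 8 libraries its log2 fold change was 0.61 ± 0.41 (SE) and the unadjusted edgeR p was 0.168, and without the WT library 3 the log2 fold change was 1.19 with an adjusted p of 0.344, the lowest over the 20 alternatives, which reached 1.0. Acaa1a had 243, 174, 225 and 155 CPM in cKO libraries 1 to 4, against 173, 149, 224 and 148 CPM in WT libraries 1 to 4. Its libraries 1 and 3 were high in both groups, and the log2 fold change was 0.20 ± 0.18. The transcripts share sequence, with 35.5% of the 50-base windows of Acaa1b also in Acaa1a, so their counts are uncertain where reads could be placed on either gene. Ehhadh and Hsd17b4, the bifunctional enzymes, had log2 fold changes of -0.07 ± 0.15 and -0.09 ± 0.16 (SE). For Hsd17b4 the WT library 3 stood at 269 CPM, against 155 to 218 CPM in cKO libraries and 174 to 188 CPM in the other WT libraries. Acox2, the oxidase for branched chains and bile acid intermediates, was the weakest of the 31, with 0.919 ± 0.26 FPKM in cKO and 0.864 ± 0.223 FPKM in WT libraries (SD, n = 4 each).

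Of the ketone body genes in the set, Oxct1 lies at chr15:4026383-4155344 on the plus strand. The gene encodes the transferase that activates acetoacetate, a step in ketone body use. It had 151, 93.1, 115 and 131 CPM in cKO libraries 1 to 4, against 185, 177, 179 and 160.1 CPM in WT libraries 1 to 4. Every cKO library was below every WT library, and the WT libraries lay close together while the cKO library 2 was lower than the other cKO libraries. The level averaged 32.8 ± 6.63 FPKM in cKO and 46.8 ± 2.84 FPKM in WT libraries (SD, n = 4 each). The fold was 0.70 and the log2 fold change -0.51 ± 0.14 (SE, 95% interval -0.83 to -0.20). Its unadjusted edgeR p of 0.0040 was the smallest in the set, the adjusted p was 0.903, and the exact permutation p was 0.0286. Over the 20 alternative settings the log2 fold change of Oxct1 stayed between -0.63 and -0.40, with adjusted p between 0.208 and 1.0. The part of the enteroendocrine and T cell marker levels given above in this difference was not tested. Bdh1, which interconverts acetoacetate and beta-hydroxybutyrate, had 223, 236, 313 and 265 CPM in cKO libraries 1 to 4, against 294, 259.6, 274 and 303 CPM in WT libraries 1 to 4. The cKO library 3 was the highest of the 8 and the cKO libraries 1 and 2 the lowest, and the log2 fold change was -0.12 ± 0.13. In bulk RNA, fewer cells of a type and less RNA per cell cannot be told apart, which holds for each of the genes described.

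**Figure D3:**
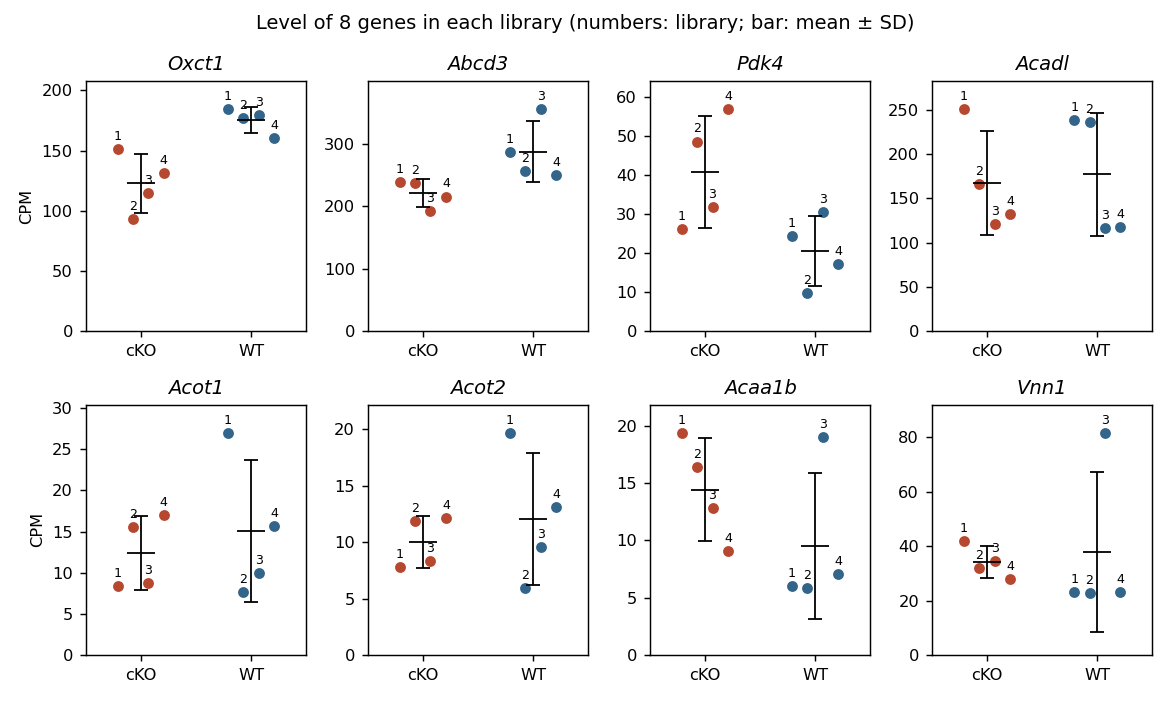
CPM of 8 genes in each library, with the 4 cKO libraries left of the 4 WT libraries in each panel and numbers naming the library. Horizontal bars are group means and whiskers are SD (n = 4 each); Oxct1 and Abcd3 have groups that do not overlap, and the WT library 3 at 81.8 CPM sets the mean of Vnn1 in WT.

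Pdk4, at chr6:5483351-5496309 on the minus strand, encodes the kinase that inactivates pyruvate dehydrogenase and so spares glucose when fat is burned. It had 26.2, 48.6, 31.8 and 57 CPM in cKO libraries 1 to 4, against 24.4, 9.84, 30.5 and 17.1 CPM in WT libraries 1 to 4. The cKO libraries 2 and 4 were well above every WT library, the cKO library 3 was just above the highest WT library, and the cKO library 1 lay within the WT range. The level averaged 11.5 ± 4.06 FPKM in cKO and 5.76 ± 2.52 FPKM in WT libraries (SD, n = 4 each). The fold was 2.0 and the log2 fold change 1.0 ± 0.36 (SE, 95% interval 0.18 to 1.82). The unadjusted edgeR p was 0.0224, the adjusted p 0.921 and the exact permutation p 0.0571. The unadjusted p was 0.05 or more without the cKO library 2, the cKO library 4 or the WT library 4 and with no filter on low counts. By limma voom, which weighted the cKO library 3 by 0.192 and the WT library 3 by 0.452, the log2 fold change was 1.53. T cell marker scores, centred on the 8 libraries, were 0.626, -0.557, 1.15 and -0.409 in cKO libraries 1 to 4, against -0.661, -0.979, 0.0439 and 0.823 in WT libraries 1 to 4. The cKO libraries 2 and 4 had lower scores and higher Pdk4 than the cKO libraries 1 and 3. Among WT libraries the library 2 was the lowest in both. The part of the T cell marker levels in the Pdk4 difference was not tested.

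Acot1 and Acot2, neighbouring thioesterase genes whose products release fatty acids from coenzyme A in the cytosol and in mitochondria, followed one another from library to library. Acot1 had 8.35, 15.6, 8.76 and 17 CPM in cKO libraries 1 to 4, against 27, 7.63, 9.95 and 15.7 CPM in WT libraries 1 to 4. Acot2 had 7.82, 11.9, 8.31 and 12.1 CPM in cKO libraries 1 to 4, against 19.7, 5.97, 9.58 and 13.1 CPM in WT libraries 1 to 4. For both genes the WT library 1 was the highest and the WT library 2 the lowest, and the cKO libraries 2 and 4 were above the cKO libraries 1 and 3. The FPKM of Acot1 relative to Acot2 was between 0.591 and 0.786 in cKO libraries, against 0.582 to 0.768 in WT libraries. The log2 fold changes were -0.28 ± 0.41 and -0.27 ± 0.32 (SE), with wide intervals, -1.2 to 0.64 and -0.98 to 0.44. The transcripts share sequence, with 24.5% of the 50-base windows of Acot2 also in Acot1, and the part of reads that match both genes in this likeness was not tested.

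Vnn1, a pantetheinase that releases cysteamine and the precursor of coenzyme A, had 41.9, 32.1, 34.4 and 27.8 CPM in cKO libraries 1 to 4, against 23.3, 22.7, 81.8 and 23.3 CPM in WT libraries 1 to 4. Of the 8 the WT library 3 was the highest, and the other 3 WT libraries lay below every cKO library. The log2 fold change was -0.15 ± 0.45 with all 8 libraries and 0.56 without the WT library 3, where the unadjusted edgeR p was 0.0034 and the adjusted p 0.588 (0.551 to 1.0 over the 20 alternatives). Enterocyte marker scores, the median log2 CPM of the list centred on the 8 libraries, were 0.342, -0.21, -0.01 and -0.09 in the cKO libraries, against -0.32, -0.18, 0.814 and -0.30 in the WT libraries, so that the library high in Vnn1 was also the highest in enterocyte markers. The part of these markers in the level of Vnn1 was not tested.

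**Figure D4:**
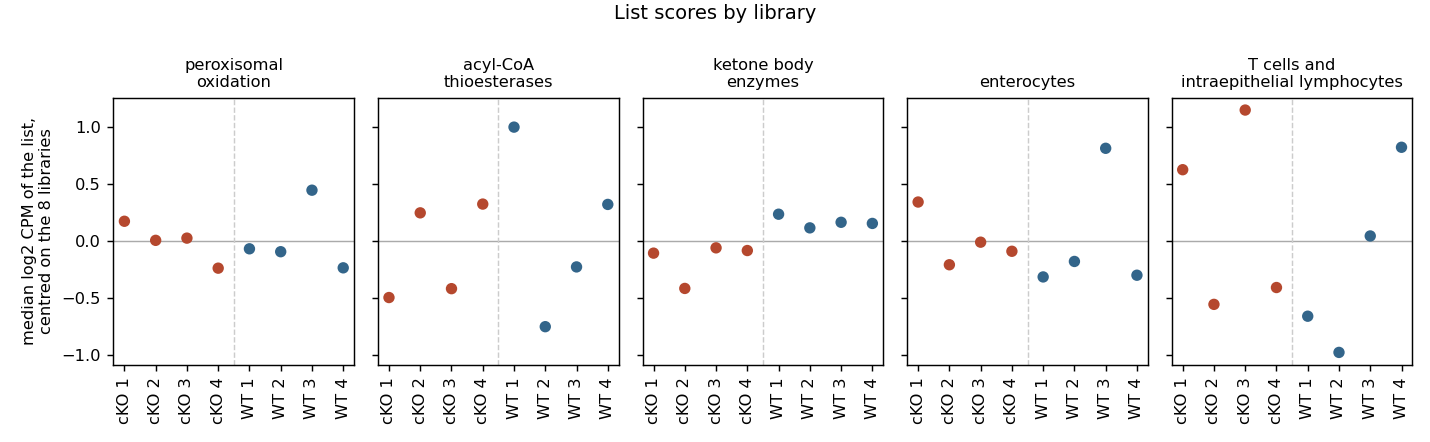
Scores of 5 gene lists in the 4 cKO libraries (left in each panel) and the 4 WT libraries (right), where a score is the median log2 CPM of the genes of the list, centred on the 8 libraries. The WT library 3 is highest for peroxisomal oxidation (0.446) and enterocyte markers (0.814), and the thioesterases are highest in the WT library 1 (1.0).

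Scores of the whole set overlapped between the groups. The median of the 31 genes was 0.058, -0.05, 0.0751 and -0.05 in the cKO libraries, against 0.0748, -0.14, 0.171 and -0.02 in the WT libraries, on the centred log2 scale. The WT library 3 held the highest value of the 8 for 12 genes and the WT library 1 for 10 genes, and the WT library 2 held the lowest for 10 genes. The peroxisomal genes scored 0.173, 0.0054, 0.0249 and -0.24 in cKO libraries, against -0.07, -0.09, 0.446 and -0.24 in WT libraries. Within groups, the median SD of log2 CPM was 0.195 over the 31 genes, against 0.25 over all genes tested. Acot1, at 0.677, and Vnn1, at 0.666, had the widest spread of the set.

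Genes of the same pathways outside the set, 122 in 5 lists of which 105 were tested, gave 0 calls, 52 estimates above 0 and 53 below, and a median log2 fold change of -0.0024. At an unadjusted p under 0.05 there were 3, all with lower values in cKO libraries, against 2.07% of all genes with lower values and 3.9% in either direction. DESeq2, run without the filter, called 0 of 119 with 5 at that p, against 2.82% of its 27741 genes. Limma voom called 0 of 105 with 11, against 8.14% of all genes. The 3 became 1 without the WT library 1 (3.54% of all genes at that p) or 4 (4.01%), 5 without the cKO library 2 (3.94%) and 7 without the cKO library 4 (5.15%). They became 8 without the WT library 3 (4.33%) and 10 without both libraries numbered 3 (5.05%). Of 23 other mitochondrial genes tested, 1 was at that p, Acss1, the mitochondrial acetyl-CoA synthetase, with 76.9, 93.8, 82.8 and 77.3 CPM in cKO libraries 1 to 4, against 113, 102, 94.5 and 95.1 CPM in WT libraries 1 to 4. Its log2 fold change was -0.29 ± 0.11 with groups that did not overlap. The gene next in p was Acot13, a thioesterase, at -0.25 ± 0.12. Of 22 other peroxisomal genes tested, 1 was at that p, Slc25a17, a carrier of the peroxisomal membrane, at -0.29 ± 0.13, and Pex5, the receptor for protein import, followed at 0.17 ± 0.10. In both the groups did not overlap. Of the 105 genes tested, groups did not overlap in 1 with higher and 3 with lower values in cKO libraries. Over all genes tested the shares were 1.41% with higher and 1.8% with lower values.

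Of 10 other ketone body genes tested, 0 had an unadjusted p under 0.05. The smallest p belonged to Slc16a7, a monocarboxylate transporter, at -0.67 ± 0.31 (log2, SE), and to Acat1, the mitochondrial acetoacetyl-CoA thiolase. Slc16a7 was at a low level, with a mean FPKM under 0.5. Acat1 had 259, 261, 259 and 270.3 CPM in cKO libraries 1 to 4, against 300.3, 281, 292 and 305 CPM in WT libraries 1 to 4. In Acat1 every cKO library was below every WT library and each group was tight, and the log2 fold change was -0.17 ± 0.09. Groups were apart in this direction in 1.8% of all genes tested. Of 26 transcription factors and coactivators of fat oxidation, 1 was at an unadjusted p under 0.05, the corepressor Nrip1, at -0.29 ± 0.12. Ppara, which encodes PPAR alpha, had 35.4, 52.3, 40.8 and 56.7 CPM in cKO libraries 1 to 4, against 66.2, 51.4, 54.9 and 57.6 CPM in WT libraries 1 to 4, and its log2 fold change was -0.31 ± 0.15. Of 26 other PPAR target genes tested, 0 were at that p. The smallest p belonged to Angptl4, an inhibitor of lipoprotein lipase, at 0.64 ± 0.29, and to Me1, the cytosolic malic enzyme, at -1.14 ± 0.59.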

How the data were processed

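The authors deposited a table of raw gene counts, whole numbers without normalization, and a table of FPKM, which divides by gene length and library size, for these 8 libraries. Per the series' design text, a Bioanalyzer checked the RNA, a NovaSeq instrument sequenced it, and Hisat2 (a spliced aligner) and Stringtie (a transcript assembler) processed the reads. Their versions, the build, the library kit and how counting treated strand and multiply matching reads are not stated in these sources. Of the 31 genes, 26 have coordinates identical to those of GENCODE M21 on GRCm38, so gene coordinates are given on that build.

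Counts were tested with edgeR 4.0.16 (R 4.3.3) by the robust quasi-likelihood test with TMM factors, its default filter on low counts, only genotype in the model and Benjamini-Hochberg adjustment over 14701 genes at 0.05. Fold changes are cKO over WT. SE is the log2 fold change over the root of its F statistic, and scores use log2 CPM with a prior count of 2. Single genes were also tested by exact two-sided permutation of CPM. Every pair of libraries differed beyond sampling noise (chi-square per degree of freedom of at least 10.9). The edgeR step and a limma fit on log2 CPM were run on simulated counts. Voom, DESeq2 and the fits on FPKM were not run on them.

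Alternatives were size factors after DESeq2 or the upper quartile, no filter, CPM 1 in 4 libraries, leaving out each library or both libraries 3, the replicate number as a block, DESeq2 1.42.0, limma 3.58.1 voom with quality weights, and limma on log2(FPKM + 0.1) and log2(FPKM + 1). Offsets for GC content and length were added after seeing the data. The 31 genes and all other lists were chosen with earlier results of these data known. The genes described in full are the 10 with the smallest p and the 3 with the highest mean FPKM, with others chosen after their values were seen. From each further list the 2 genes with the smallest p are named.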

Additional observations from a re-analysis of the deposited data

Results flagged for a closer look

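In each of the 31 genes the highest or lowest library of each group of 4 was set against the others, 62 groups in all, of which 7 had a library far from the rest. Chance flags about 1 in 20 groups. The WT library 3 accounts for 5 of the 7, each as the highest. In it Vnn1 stood at 81.8 CPM, against 22.7 to 23.3 CPM in the other WT libraries. Crat stood at 116 CPM, against 65.9 to 68.5 CPM. Decr2 stood at 57.4 CPM, against 46.2 to 47.0 CPM. Acaa1b stood at 19 CPM, against 5.86 to 7.09 CPM, and Hsd17b4 at 269 CPM, against 174 to 188 CPM. The other two were Acads in the cKO library 3, at 117 CPM against 86.7 to 91.2 CPM in the other cKO libraries, and Cpt2 in the WT library 2, at 133 CPM against 164 to 170 CPM in the other WT libraries.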

How the results depend on the processing

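Under the 20 alternatives 0 of the 31 genes were called, and their median log2 fold change stayed below 0, between -0.11 and -0.000996 when 1 library was left out. The genes at an unadjusted p under 0.05, 3 in the main test, ranged from 2 to 6 when 1 library was left out and were 7 without both libraries 3. Over all genes the share at that p was 2.84% to 5.39% and 5.05%. Genes whose groups did not overlap, 2 in the main test, ranged from 2 to 6 and were 6 without both libraries 3, while the share over all genes, 3.21% in the main test, was 4.96% to 8.25% and 10.5%. The calls over all genes, 2 in the main test, ranged from 0 to 3 when 1 library was left out. They were 10 with no filter, 4 without both libraries 3, 41 by DESeq2, 8 by voom, 0 on log2(FPKM + 0.1) with the filter and 0 on log2(FPKM + 1). The cause was not tested.

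Same-numbered libraries had deviations correlated at -0.11, 0.108, 0.152 and 0.138. With 3 of 4 pairs over 0.1, and not all, the samples were treated as sharing only a number. The same-numbered WT library was the best match of 2 of the 4 cKO libraries, those numbered 3 and 4, which is a hint from the data, not the design. With the replicate number as a block, 0 genes were called in all. The 31 genes had 0 calls and 3 at an unadjusted p under 0.05 in that fit, against 3.77% of all genes. The block turned the sign of Etfb (-0.0046) and Vnn1 (0.0974).

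Of the 31 genes, 13 kept their sign in every setting. Upper-quartile factors turned Acadvl (0.0066), Hadha (0.0044) and Eci1 (0.00999). Leaving out both libraries 3 turned Acadm (0.0444), Decr1 (0.0779), Etfb (-0.22), Ehhadh (0.0445), Hsd17b4 (0.0816) and Vnn1 (0.556). Voom turned Hadha (0.0103), Decr1 (0.0082), Eci2 (0.0142), Etfb (-0.36), Acot1 (0.0517), Acot2 (0.0259) and Vnn1 (0.316). The FPKM fits turned Etfb (-0.0053 with 0.1 added, filtered or not, and -0.0034 with 1) and Vnn1 (0.0861 and 0.0707). Offsets for GC content and length turned Crat (-0.0737), Acads (-0.043), Hadhb (0.16) and Etfb (-0.11). When 1 library was left out, the log2 fold change ranged from -0.345 to 0.098 for Acadl, -0.0123 to 0.149 for Acads, -0.0511 to 0.074 for Acadvl, -0.503 to 0.171 for Acot1 and -0.496 to 0.0802 for Acot2. It ranged from -0.0903 to 0.272 for Acox2, -0.0746 to 0.247 for Crat, -0.162 to 0.0134 for Decr1, -0.0951 to 0.0319 for Decr2, -0.095 to 0.0423 for Eci1 and -0.107 to 0.0126 for Eci2. It ranged from -0.132 to 0.0893 for Ehhadh, -0.113 to 0.17 for Etfb, -0.0645 to 0.0322 for Hadha, -0.158 to 0.0717 for Hsd17b4 and -0.327 to 0.561 for Vnn1. With 1 library left out, signs held but sizes moved for Cpt1a (-0.27 to -0.04), Slc25a20 (-0.30 to -0.13) and Acadm (-0.24 to -0.05). The same was so for Hadh (0.0031 to 0.20), Etfa (-0.27 to -0.08), Acaa1a (0.0887 to 0.346) and Bdh1 (-0.23 to -0.06). Of the 31 genes, 29 had a count of 100 or more in every library, Acox2 and Etfb being the exceptions.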

Other observations

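Oxct1 and Rictor lie on the same chromosome, 2.55 Mb apart. This neighbourhood was looked at after the values of Oxct1 were seen. Within 5 Mb of Rictor 31 genes were tested, Oxct1 among them, and 19 of them had an estimate below 0, with a median log2 fold change of -0.04. The groups did not overlap in 4 genes, Oxct1 included, with 3 lower and 1 higher in cKO libraries, against 3.21% of all genes tested. At an unadjusted edgeR p under 0.05 there were 3, against 3.9% of all genes, of which Oxct1 was lower and the other two were higher in cKO libraries.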
